A study of Mus musculus with 12 samples.

Results

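The histone mark H3K23ac was compared between endothelial cells isolated from the lungs of CSE knockout mice (CSE-KO) and of wild-type mice (WT). The comparison uses the 4 H3K23ac libraries of a set of 12, with 2 replicates per genotype. A region was kept where at least 2 of these 4 libraries had 10 or more counts, which left 12586 of 1192075 regions (1.06%). Each region belongs to the list of 1 of the 12 libraries, numbered as the libraries are. Of the kept regions, 10894 came from the 4 H3K23ac lists and 1692 from the 8 lists of the other marks, H3K27ac and H3K4me3. A library's own list favours that library, so results for the 1692 regions are also given apart where stated.

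Acetylation of a histone lysine removes its positive charge and offers a docking site for bromodomain proteins. H3K23ac lies on the tail of histone H3 and is known from transcribed and accessible chromatin. The acetyltransferases MOZ and MORF are known to write it, with acetyl-CoA as the donor. CSE (cystathionine gamma-lyase, gene Cth) makes cysteine from cystathionine and is also a source of hydrogen sulfide in endothelium. The title of the series ties cystine import and breakdown to histone acetylation, and the comparison bears on the acetylation mark when CSE is missing.

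Every sample is labelled as mouse lung endothelial cells. The WT samples are labelled Cre-neg and the CSE-KO samples Cre-pos, so Cre itself and loss of CSE cannot be told apart. The labels used here do not give the Cre driver, the age of the mice or whether replicates came from separate animals. The p-values below therefore measure the spread between libraries, which may be technical. The assay was ACT-seq, in which Tn5 transposase joined to an antibody through Protein A cuts adaptors into marked chromatin. In such a bulk library fewer marked cells and less mark per cell cannot be told apart. The table gives the regions no position, length or gene, so neither the deletion in Cth nor endothelial marker genes could be checked, and no gene is named.

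Depth was similar over the 4 libraries, at 1569853 and 1848702 counts in WT against 1908675 and 1466588 in CSE-KO. How these counts were spread was not. WT replicate 1 had 67214 regions with 10 or more counts, WT replicate 2 had 34495, CSE-KO replicate 1 had 58152 and CSE-KO replicate 2 had 52056. The median count of those regions was 17 in WT replicate 1, 45 in WT replicate 2, 27 in CSE-KO replicate 1 and 22 in CSE-KO replicate 2. WT replicate 2 thus had the fewest regions and the most counts in each. The number of such regions did not differ between genotypes beyond the WT spread, with a mean of 50854 ± 23136 in WT against 55104 ± 4311 in CSE-KO (SD, n = 2 each, two-sided exact permutation p = 1). With 2 libraries against 2, that test cannot give a p below 0.333.

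H3K23ac regions were mostly private to 1 library, within a genotype as well as between genotypes. Of 194621 regions that reached 10 counts in any of the 4 libraries, 182035 (93.5%) did so in 1 library only. Of these 182035, 176758 belonged to the H3K23ac lists, where a library's own list favours it, so the share carries that effect. How a read over overlapping regions of several lists was counted is not given in the sources used here, and it could set how many libraries reach 10 counts in a region. Its part in these shares and in the overlaps below was not tested. Among the 12586 kept regions, 8871 reached 10 counts in exactly 2 libraries, 2720 in 3 and 995 in all 4. Where exactly 2 libraries reached 10 counts, the other two had no count at all in 62.4% of 17742 values, with a median of 0. The single library with the most counts held over 50% of a region's H3K23ac counts at 9740 of the kept regions (77.4%). In the lists of the other marks this was so at 1040 of 1692 regions (61.5%).

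Most regions of exactly 2 libraries joined libraries of different genotypes. The share within 1 genotype was above the 33.3% that such pairs are of all 6 pairs, but only through the CSE-KO pair. Of the 8871 regions with exactly 2 libraries, 3451 had 2 libraries of 1 genotype, or 38.9% (Wilson 95% interval 37.9 to 39.9, which covers the counting of regions only). It was 35.6% at a minimum of 5 counts and 43.3% at 20. The 3451 were 2733 regions of the CSE-KO pair, the most of any pair, and 718 of the WT pair. WT replicate 1 had 2114 with CSE-KO replicate 2 and 1818 with CSE-KO replicate 1. WT replicate 2 had 785 and 703 with them in that order, so the WT pair was near the lowest. In the lists of the other marks the CSE-KO pair had 340 and the WT pair 81 of 1132 such regions, or 37.2% together (34.4 to 40). Of the 6 pairs of libraries, the 2 CSE-KO libraries shared most, with 5723 regions at 10 or more counts in both, 9.84% of the regions of replicate 1 and 11% of those of replicate 2. The 2 WT libraries shared least, with 2438 regions, 3.63% of those of replicate 1 and 7.07% of those of replicate 2. WT replicate 1 shared 4988 regions with CSE-KO replicate 2, 7.42% and 9.58% of their regions, and thus overlapped more with the knockout than with its own replicate. The low figures all involve WT replicate 2, whose 2539 and 2712 regions shared with the CSE-KO libraries lay close to the 2438 shared with WT replicate 1. In the other marks' lists all pairs overlapped more. There the CSE-KO pair shared 822 regions, 29.3% of those of replicate 1 and 30% of those of replicate 2. The WT pair shared 308, or 10.7% and 32.6%, and WT replicate 1 shared 749 with either CSE-KO library.

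**Figure D1:**
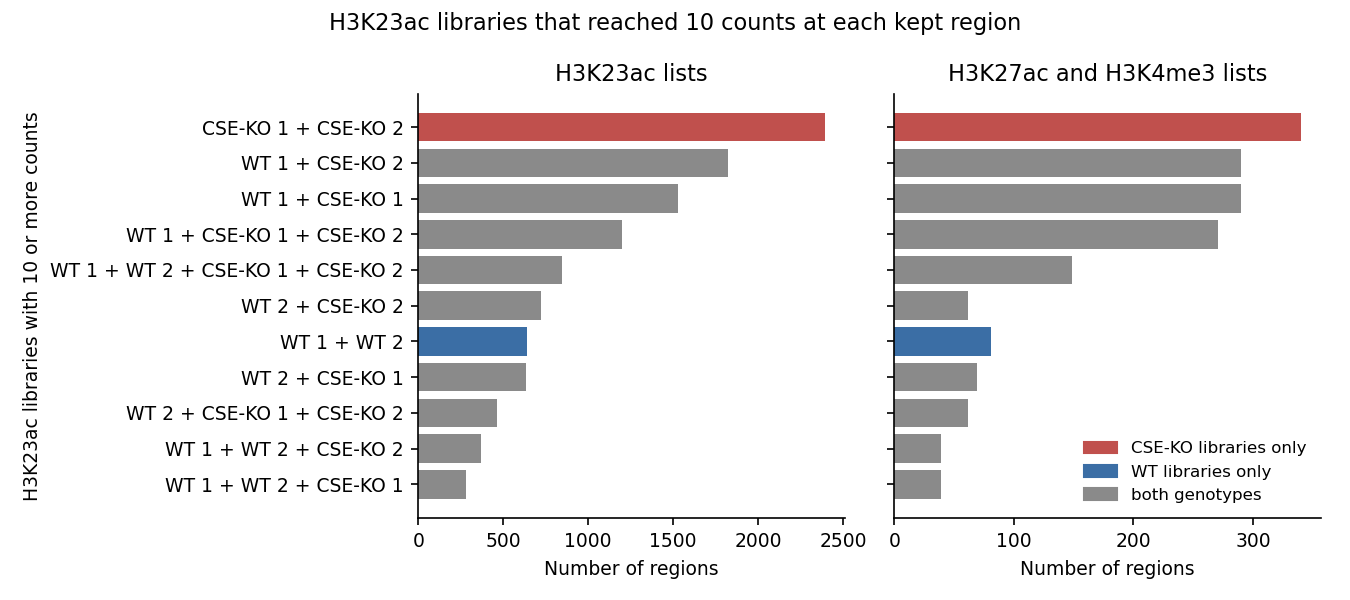
Number of kept regions (horizontal axis) for each combination of H3K23ac libraries that reached 10 counts (vertical axis), in the H3K23ac lists on the left and in the lists of the other marks on the right. The pair of CSE-KO libraries is the most frequent combination in both panels (2393 and 340 regions), and the pair of WT libraries has 637 and 81.

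Regions with counts in 1 genotype and none in the other were found in both directions. In 992 regions (7.88% of those kept) both CSE-KO libraries had 10 or more counts and both WT libraries had 0. In 310 regions (2.46%) both WT libraries had 10 or more and both CSE-KO libraries 0. These regions passed the rule through 1 genotype alone. Pairs that cross the genotypes gave counts in the same range: 1093 regions (8.68%) had WT replicate 1 and CSE-KO replicate 2 at 10 or more and the other two at 0, and 819 (6.51%) had WT replicate 1 and CSE-KO replicate 1. For WT replicate 2 the counts were 224 with CSE-KO replicate 1 and 261 with CSE-KO replicate 2. In the other marks' lists the CSE-KO pair had 84 such regions (4.96%) and the WT pair 21 (1.24%). There WT replicate 1 had 107 (6.32%) with CSE-KO replicate 2 and 94 (5.56%) with CSE-KO replicate 1. WT replicate 2 had 11 with CSE-KO replicate 1 and 21 with CSE-KO replicate 2. Presence in 2 libraries and absence from the other two was thus found across genotypes in numbers like those within a genotype.

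The kept regions took a larger share of the counts in CSE-KO libraries. The share was 12.9% and 14.1% in the WT libraries against 17.7% and 21.1% in the CSE-KO libraries, so the genotypes did not overlap. The means were 13.5% ± 0.825 and 19.4% ± 2.38 (SD, n = 2 each), with a two-sided exact permutation p of 0.333, the smallest this design allows. In kept regions of the other marks' lists the shares were 1.86% and 1.06% in WT against 2.18% and 2.43% in CSE-KO (exact permutation p = 0.333). Over all regions of those lists, kept or not, the genotypes overlapped, at 6.36% and 2.46% in WT against 5.21% and 6.52% in CSE-KO (exact permutation p = 0.667). The rule keeps regions shared by 2 libraries and the CSE-KO libraries shared most, so the first 2 shares are not independent of it.

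No region changed in H3K23ac between CSE-KO and WT past the threshold of 0.05. The quasi-likelihood test of edgeR with Benjamini-Hochberg adjustment called 0 of 12586 regions (0%), with a lowest adjusted p of 0.625. An unadjusted p under 0.05 was reached by 666 regions (5.29%), of which 431 had higher values in CSE-KO (3.42%) and 235 had lower ones (1.87%). In the lists of the other marks it called 0 of 1692 (0%), while 69 had an unadjusted p under 0.05 (4.08%), with CSE-KO above WT at 54 (3.19%) and below at 15 (0.887%). All of these 69 regions, and 657 of the 666, had their 10 or more counts in the CSE-KO pair alone or the WT pair alone. Such a region was kept through 1 genotype and had to differ, so these numbers are a description and support no change. Leaving out a library left 1 library in a genotype and changed which regions passed the rule, 6954 to 10380 of them. Counts of low p from such fits are therefore not set beside the 666. Values of the genotypes, as counts per 1000000 counts in the kept regions (CPM) after TMM scaling, did not overlap at 3265 regions with CSE-KO above (25.9%) and 1352 with WT above (10.7%). In the other marks' lists these were 413 (24.4%) and 148 (8.75%). By order alone the 2 highest of 4 libraries are of 1 genotype in 33.3% of cases, both directions together. The rule kept 2733 regions through the CSE-KO pair alone and 718 through the WT pair alone. Such regions tend to separate by that choice, so these numbers too are a description and support no change.

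The spread between replicates was larger than the difference between genotypes. On the log2 CPM scale with a prior count of 2, the median absolute difference over the kept regions was 2.75 between the WT replicates, 1.76 between the CSE-KO replicates and 1.18 between the genotype means, which average 2 libraries and so vary less than single ones. The biological coefficient of variation, the relative spread between replicates beyond counting noise, was 160% for H3K23ac. It was 41.9% for H3K27ac and 36.9% for H3K4me3, each over its own 23593 and 11027 regions with 10 or more counts in 2 libraries. DESeq2 called 98 of the 12586 regions (0.779%), all lower in CSE-KO, and gave no adjusted p for 8784. Of these 98, 84 belonged to the list of WT replicate 2 and 96 had over 50% of their H3K23ac counts in that library. Of the 1692 regions in the other marks' lists DESeq2 called 3. With this spread, the absence of calls does not show that H3K23ac was alike in the genotypes.

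The sign of a region's fold change went with the list it came from. The median log2 fold change, CSE-KO over WT, was -1.34 over 4433 regions of the WT H3K23ac lists and 1.33 over 6461 regions of the CSE-KO H3K23ac lists, against 0.22 over all 12586. By single list it was -1.09 for WT replicate 1 (1613 regions), -1.55 for WT replicate 2 (2820), 1.46 for CSE-KO replicate 1 (2938) and 1.24 for CSE-KO replicate 2 (3523). A region's own library reached 10 counts at 96.7%, 88.2%, 96.3% and 95.7% of these regions. The list of WT replicate 2 also held 222 kept regions with no count in WT replicate 2 itself. In lists that follow none of the 4 libraries the median was 0.11 over 1692 regions, with 906 above 0 and 786 below. It was 0.03 over 589 regions of H3K27ac lists and 0.15 over 1103 regions of H3K4me3 lists. It was 0.07 where such a list came from a WT library (712 regions) and 0.14 where it came from a CSE-KO library (980 regions). The level depends on the scaling: over the 1692 regions total counts gave a median of 0.65 and DESeq2 size factors one of -0.05, and over all 12586 regions 0.75 and 0.04. Without WT replicate 1 it was 2.92 in the other marks' lists (1031 regions), and without WT replicate 2 it was -0.43 (1480 regions). The rule was applied again to the libraries left. Of the 1031 regions, 822 had 10 or more counts in both CSE-KO libraries and so passed through that pair. The 2.92 is thus not independent of the choice of regions and supports no change.

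**Figure D2:**
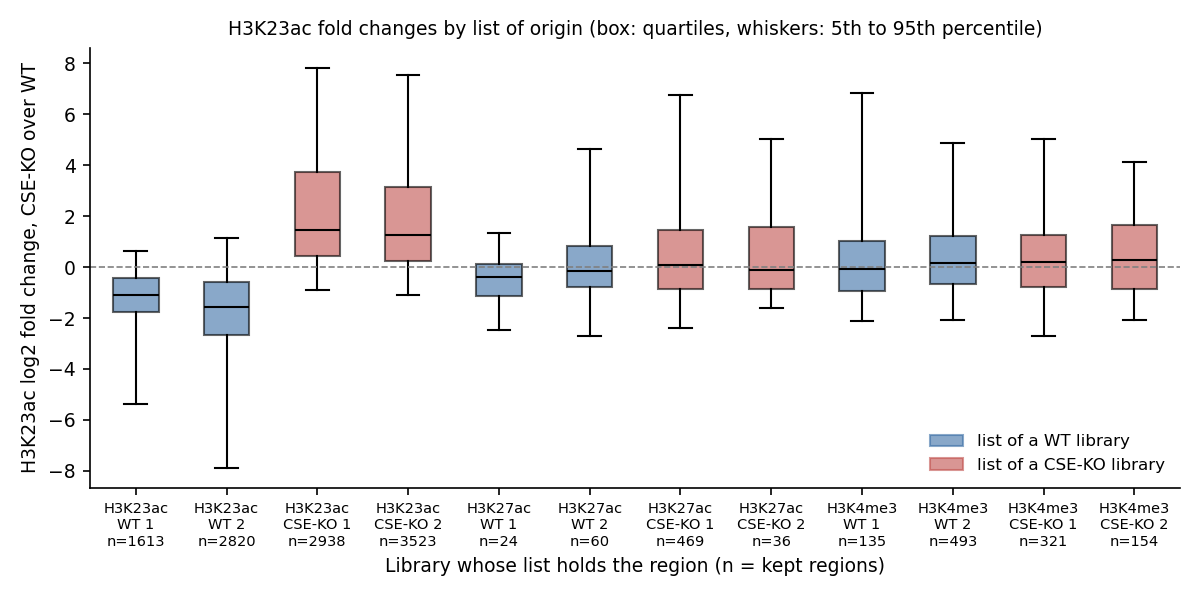
H3K23ac log2 fold change, CSE-KO over WT (vertical axis), of the kept regions by the library whose list holds them (horizontal axis, with the number of regions). Lines in the boxes are medians, boxes quartiles and whiskers the 5th to 95th percentile. Regions of the H3K23ac lists lie on the side of their own genotype, with medians from -1.55 to 1.46, and those of the other marks' lists lie around 0.

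Regions were chosen by p for description, 10 in each direction among those where the genotypes did not overlap, with 5 from the H3K23ac lists and 5 from the other marks' lists. All 20 had the same edgeR adjusted p of 0.625, so none was called by the edgeR test of the 4 libraries. DESeq2 called 6 of the 10 lower ones (adjusted p = 0.0411 each) and none of the higher ones, 9 of which it gave no adjusted p. On the higher side, peak2_13097 had 0 and 0 counts in WT against 10 and 10 in CSE-KO (unadjusted p = 0.00387 in the edgeR test). Against a floor of 3 counts over the WT group its CSE-KO level was at least 5.13-fold higher. Such bounds, here and below, cover counting error only and leave out the spread between replicates. The region belongs to the list of WT replicate 2, which itself had no count there. Of the other marks' lists, peak5_15924 (listed for WT H3K4me3 replicate 1) was without counts in both WT libraries against 11 and 10 in CSE-KO, at least 5.37-fold higher over the same floor (edgeR unadjusted p = 0.0047). It had H3K4me3 in both genotypes, with 40 and 6 counts in WT against 27 and 16 in CSE-KO.

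The low p-values on the higher side mostly came with few counts. Of these 10 regions, 9 had 10 to 12 counts in each CSE-KO library and none in WT. The tenth, which CSE-KO H3K4me3 replicate 1 lists, had 0 and 0 counts in WT against 91 and 81 in CSE-KO, at least 43.9-fold higher. Its H3K4me3 was high in all libraries, with 191 and 284 counts in WT against 323 and 216 in CSE-KO, and its H3K4me3 log2 fold change was -0.03. Its H3K27ac counts were 28 and 35 in WT against 117 and 31 in CSE-KO, a log2 fold change of 0.07. With all 12 libraries in the edgeR model it was 1 of 2 called regions (adjusted p = 0.000221). That model takes its spread from the other marks too, with a coefficient of variation of 97.9% against 160%. The region was kept through CSE-KO alone and chosen by its p, so the call is no independent support.

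On the lower side the counts were mostly larger, and at most regions they came mainly from WT replicate 2. The region peak2_58999 had 18 and 183 counts in WT against 0 and 0 in CSE-KO, at least 76.3-fold lower over the floor of 3 counts in the CSE-KO group (edgeR unadjusted p = 0.0021). With WT replicate 1 alone this bound was 19.5-fold, and with WT replicate 2 alone 133-fold. It carried H3K4me3 in both genotypes, with 19 and 16 counts in WT against 21 and 11 in CSE-KO. The region peak10_59177, from the list of CSE-KO H3K27ac replicate 2, had 66 and 66 counts in WT against 0 and 0 in CSE-KO, at least 59.8-fold lower (edgeR unadjusted p = 0.00579). Both of these regions were among the DESeq2 calls. Its H3K27ac counts were 31 and 15 in WT against 31 and 19 in CSE-KO, so that mark was present in both genotypes. Lower regions of the other marks' lists included small and even counts, with 11 and 12 in WT at 1 region and 12 and 12 at another. Both had 0 and 0 in CSE-KO. All 5 lower regions of the H3K23ac lists came from the list of WT replicate 2. In 4 of them WT replicate 2 had 165 to 533 counts and WT replicate 1 had 15 to 36. One of these, with 17 and 533 counts in WT against 1 and 19 in CSE-KO, overlapped between genotypes in raw counts. Its log2 fold change was -4.83, and -1.38 without WT replicate 2. The fifth had 374 and 899 counts in WT against 426 and 148 in CSE-KO, and its log2 fold change was -1.51 (standard error 0.47). Its raw counts overlapped too, and both regions stood apart only after scaling.

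**Figure D3:**
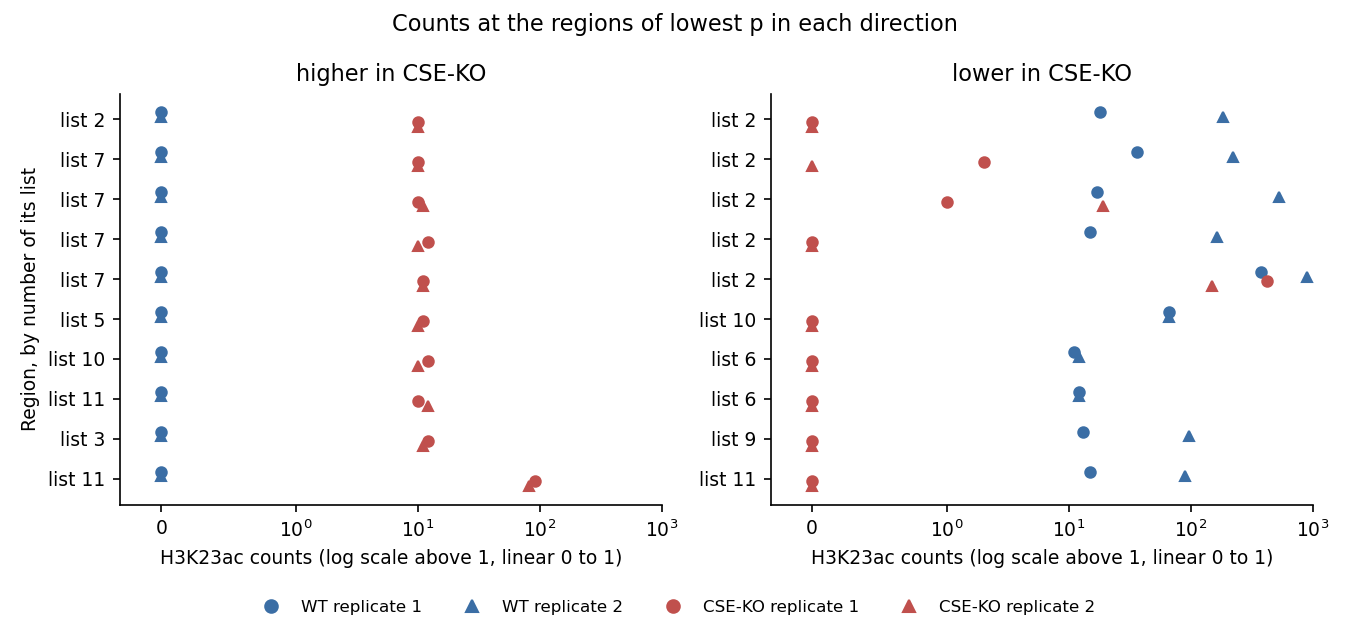
H3K23ac counts (horizontal axis, log scale above 1) in each of the 4 libraries at the 10 regions of lowest p in each direction, by the number of their list (vertical axis). On the left, 9 of 10 regions have 10 to 12 counts in each CSE-KO library and none in WT. On the right, WT replicate 2 has the most counts at 8 regions, and CSE-KO libraries are at 0 in both replicates at 7.

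None of the regions with H3K23ac in all 4 libraries was called by edgeR. All 4 libraries reached 10 counts at 995 regions, 149 of them in the other marks' lists. A region absent from a genotype, or low in any library, cannot be among them, so a smaller spread between replicates is built into the choice. In the test of all kept regions they had a median log2 fold change of -0.31 (quartiles -1.03 and 0.52), and 0 were called, with 3 at an unadjusted p under 0.05. Fitted alone with edgeR, a choice made after the data were seen, 0 of 995 were called, with 40 (4.02%) at an unadjusted p under 0.05 and a lowest adjusted p of 0.797. The biological coefficient of variation there was 57.9% and the median log2 fold change -0.04. The 3 regions with the highest minimum over the libraries came from the lists of CSE-KO replicate 1 and WT replicate 2. The first had 244 and 761 counts in WT against 733 and 373 in CSE-KO, a log2 fold change of -0.18 with a standard error of 0.43. The second had 120 and 318 counts in WT against 321 and 219 in CSE-KO, a log2 fold change of -0.02 with a standard error of 0.66. The third had 123 and 172 counts in WT against 373 and 171 in CSE-KO, a log2 fold change of 0.46 with a standard error of 0.73. At each of these 3 the genotypes overlapped or differed by less than the standard error.

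H3K4me3, a mark of active promoters, and H3K27ac, a mark of active promoters and enhancers, were read at the same regions. The rule did not use their counts, but 1692 of the kept regions come from lists of these marks, which favour them. The kept regions are 1.06% of all regions, and they held 27.7% ± 1.35 of the counts of the H3K4me3 libraries and 6.32% ± 0.924 of those of the H3K27ac libraries (SD, n = 4 each, both genotypes). With the H3K23ac lists alone these shares were 20.1% ± 1.36 and 5.32% ± 0.798. Of the kept regions, 4393 also had 10 or more counts in at least 2 H3K4me3 libraries, 34.9% of them and 39.8% of the 11027 H3K4me3 regions so defined. For H3K27ac it was 4157 regions, 33% of the kept ones and 17.6% of the 23593 H3K27ac regions. With the H3K23ac lists alone the 2 shares were 30.8% and 48.8% for H3K4me3. They were 32.6% and 31.8% for H3K27ac. Both marks were present by this measure at 1377 kept regions (10.9%) and neither at 5413 (43%). With the H3K23ac lists alone these were 9.88% and 46.6%. Only 6 kept regions of all lists had no count in any of the 8 libraries of these marks.

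The more H3K23ac libraries had a region, the more H3K4me3 it carried. In regions of the H3K23ac lists, which favour neither other mark, mean H3K4me3 was 1.14 ± 0.152 per 1000000 counts of the whole library (library CPM) where 1 H3K23ac library had 10 or more counts. It was 11.5 ± 1.13 with 2 libraries, 26.4 ± 1.61 with 3 and 59.9 ± 2.76 with 4 (SD, n = 4 libraries). H3K27ac also increased over these classes but less, from 1.54 ± 0.117 to 4.1 ± 0.547, 5.94 ± 0.999 and 9.21 ± 1.73 (SD, n = 4). The ranges of neighbouring classes did not overlap between libraries for either mark. Region lengths are not in the table, and a longer region collects more counts of any mark. The part of length in these levels was not tested. The ratio of mean H3K4me3 to mean H3K27ac was 0.744, 2.82, 4.45 and 6.51 from 1 to 4 libraries. By counts, 1.5% of 176758 regions with 1 H3K23ac library had H3K4me3 at 10 or more counts in 2 libraries, against 22.5% of 7739 with 2, 45% of 2309 with 3 and 67.6% of 846 with 4. This is a description across regions, which share their libraries and are not replicates.

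**Figure D4:**
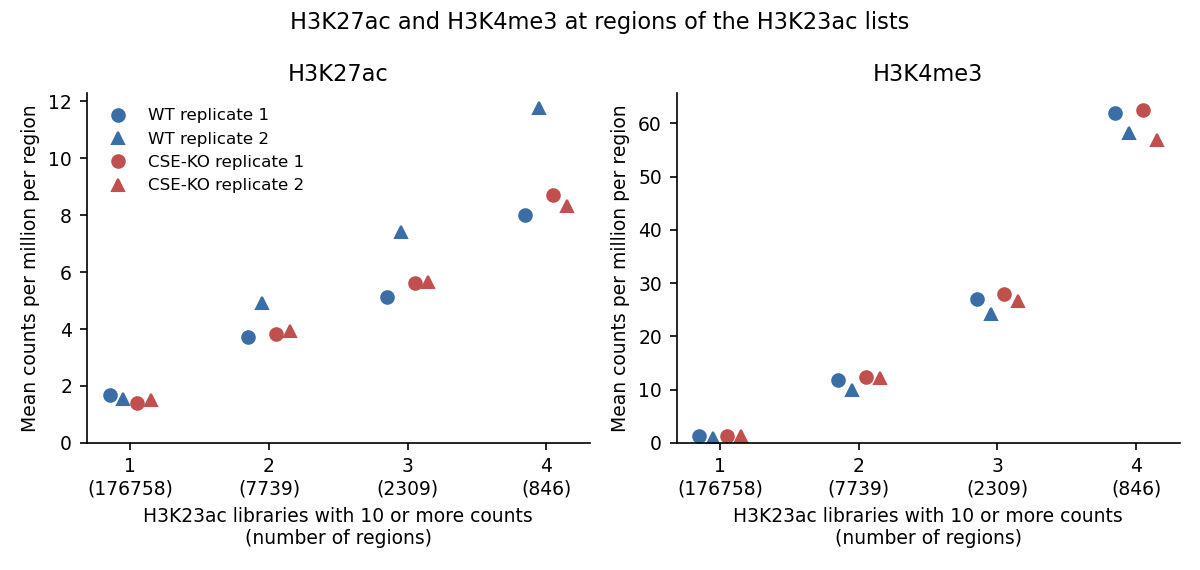
Mean H3K27ac (left) and H3K4me3 (right) per region, in library CPM (vertical axes, each point 1 library), at regions of the H3K23ac lists by the number of H3K23ac libraries with 10 or more counts (horizontal axis). H3K4me3 goes from about 1.14 to 59.9 and H3K27ac from 1.54 to 9.21, and WT and CSE-KO libraries follow the same course.

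Regions where only the 2 libraries of 1 genotype reached 10 H3K23ac counts were next compared for the other marks. The other genotype could still have counts there. Over all lists it had none at 992 of 2733 regions of the CSE-KO pair and 310 of 718 of the WT pair. In the H3K23ac lists, 2393 regions reached 10 counts in the CSE-KO pair only and 637 in the WT pair only. H3K4me3 at the CSE-KO pair's regions was 12 and 10.6 library CPM in the WT libraries against 13.5 and 13.3 in the CSE-KO libraries. At the WT pair's regions it was 9.38 and 7.89 in WT against 9.88 and 10.2 in CSE-KO. H3K4me3 was thus higher at the CSE-KO pair's regions in libraries of both genotypes, by 1.31 ± 0.0398 times in WT and 1.33 ± 0.0434 times in CSE-KO (SD, n = 2 each). The genotypes did not differ in this ratio beyond their spread (two-sided exact permutation p = 0.667). For H3K27ac the ratio was 0.894 ± 0.089 in the WT libraries against 0.942 ± 0.00662 in CSE-KO (SD, n = 2 each, exact permutation p = 1). The values of the genotypes overlapped in both ratios. With 2 libraries a group this permutation test cannot give a p below 0.333. It therefore cannot decide whether either ratio follows the genotype whose libraries reached 10 H3K23ac counts.

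**Figure D5:**
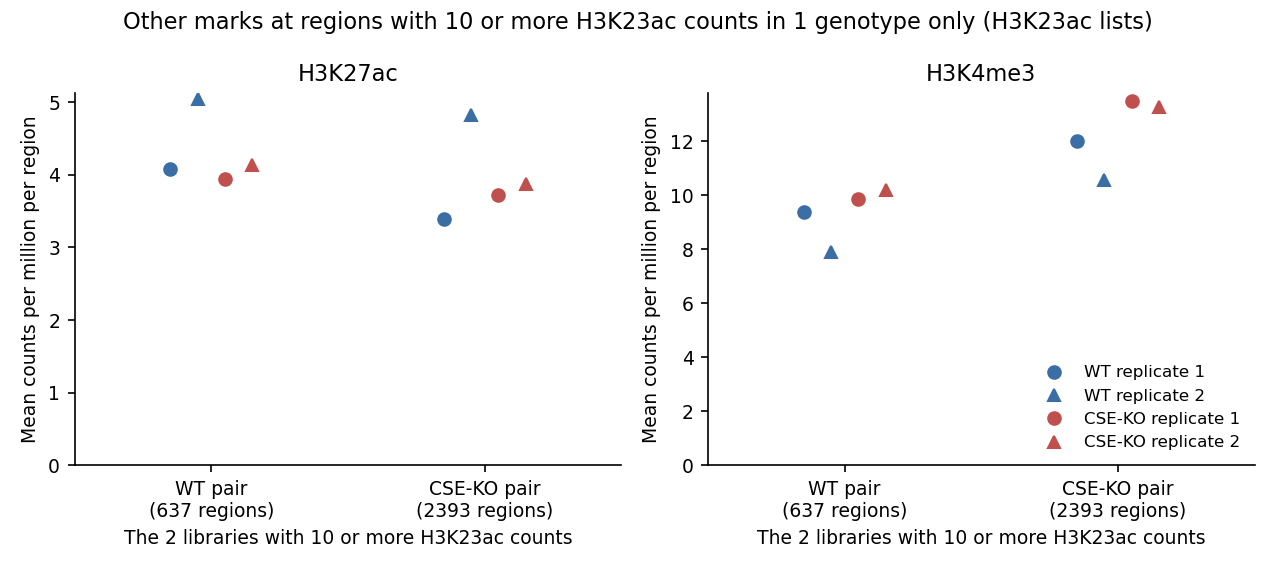
Mean H3K27ac (left) and H3K4me3 (right) per region in each library, in library CPM (vertical axes), at regions of the H3K23ac lists where only the 2 WT libraries or only the 2 CSE-KO libraries had 10 or more H3K23ac counts (horizontal axes). H3K4me3 is higher at the CSE-KO pair's regions in all 4 H3K4me3 libraries, of either genotype.

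All 6 pairs of libraries gave similar CSE-KO to WT ratios of the other marks. For H3K4me3 the ratio of mean library CPM was 1.19 at the CSE-KO pair's regions, 1.16 at the WT pair's and 1.09 to 1.14 at regions of the other pairs. For H3K27ac it was 0.925 at the CSE-KO pair's regions, 0.885 at the WT pair's and 0.877 to 0.915 at the rest. For H3K27ac the WT replicates differed by more than this, with 3.39 and 4.82 library CPM at the CSE-KO pair's regions. The median fitted log2 fold change was 0.11 for H3K4me3 at 578 tested regions of the CSE-KO pair and 0.07 at 123 of the WT pair. For H3K27ac it was -0.13 at 565 and -0.16 at 178.

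Few of the kept regions changed in another mark. In edgeR's test of H3K27ac over all its 23593 regions 17 were called (0.0721%), and 1 of the 4157 regions kept for H3K23ac was among them. Of those 4157, 100 (2.41%) had an unadjusted p under 0.05, against 3.48% of all regions tested for H3K27ac. The called region, of the list of CSE-KO H3K23ac replicate 2, rose in H3K27ac, with 1 and 9 counts in WT against 100 and 37 in CSE-KO (log2 fold change 2.70, edgeR adjusted p = 0.0448). Its H3K23ac counts were 0 and 0 in WT against 61 and 24 in CSE-KO, and it had no H3K4me3 count in any library. The H3K23ac level was at least 21.2-fold higher in CSE-KO over the floor of 3 counts, with an unadjusted p of 0.0579 in the edgeR test. With CSE-KO replicate 2 alone the bound was 13.1-fold. The call in H3K27ac was lost with total-count scaling (edgeR adjusted p from 0.116 upwards at all 4157 regions), with DESeq2 and with the replicate number as a block (lowest edgeR adjusted p 0.124). With 1 H3K27ac library left out, fewer of the kept regions were tested and the calls were 11 (WT replicate 1), 21 (WT replicate 2) or 0 (either CSE-KO replicate).

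For H3K4me3, edgeR called 1 of 11027 regions (0.00907%) and 0 of the 4393 kept for H3K23ac, with 198 of the latter (4.51%) at an unadjusted p under 0.05, close to the 4.44% of all regions tested for H3K4me3. Without WT H3K4me3 replicate 1, 17 of the 4106 regions still tested were called. DESeq2 called 1 of the 4393. That region, of the list of CSE-KO H3K23ac replicate 1, was chosen after its values were seen. It had H3K4me3 counts of 39 and 25 in WT against 140 and 140 in CSE-KO (log2 fold change 1.90, edgeR adjusted p = 0.146). Its H3K23ac counts were 1 and 0 in WT against 82 and 84 in CSE-KO (edgeR adjusted p = 0.625), and its H3K27ac counts 11 and 8 in WT against 43 and 38 in CSE-KO (log2 fold change 1.30, edgeR adjusted p = 0.976). Its H3K4me3 was also called with the replicate number as a block (edgeR adjusted p = 0.0173) and without WT replicate 1. The raw counts of all 3 marks were higher in each CSE-KO library than in either WT library, although the H3K27ac library of CSE-KO replicate 1 was also the deepest of its mark.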

How the data were processed

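As deposited by the authors, the table gives unnormalized counts of reads for every region and each of 12 libraries. The authors' tools named in the submitters' processing notes are ChIPseeker 1.38.0, R 4.3.3, edgeR 4.0.16 and Subread, with the builds GRCm39 and mm10. The sources used here do not give the aligner, the peak caller or how a read over several regions was counted. List numbers in the region names were read as library numbers of the labels.

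Regions with 10 or more counts in at least 2 of a mark's 4 libraries were tested with edgeR 4.0.16 (TMM factors, glmQLFit and glmQLFTest, two-sided, Benjamini-Hochberg over all such regions, threshold 0.05). DESeq2 1.42.0 was the second tool. The test was run on simulated data first. Recovery was required there only at a spread smaller than that of H3K23ac, so it is no check of power here. Standard errors are the fold change over the root of F. Floors of 3 counts cover counting error only, as do Wilson intervals, since PCR copies are not independent molecules. Replicates differed by more than counting noise (chi-square per degree of freedom 28.6 in WT and 25.2 in CSE-KO) and were kept apart. Summaries were made with scipy 1.17.1, pandas 2.3.3 and numpy 2.4.6 in Python 3.11.15.

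Described regions are the 10 of lowest p a direction whose genotypes do not overlap (5 from H3K23ac lists, 5 from others) and the 3 of highest minimum. Names are printed for at most 2 a direction. The regions, lists and tests were chosen with earlier results of these data known. Gene lists and marker genes were not analysed here.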

Additional observations from a re-analysis of the deposited data

How the results depend on the processing

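The 0 calls for H3K23ac stayed 0 with edgeR under DESeq2 size factors, total counts, a minimum of 20 counts, filterByExpr, the replicate block and each library left out (0 to 0). With no filter 1 of 288103 regions was called, with all 12 libraries 2 and with DESeq2 98. In the other marks' lists the 0 calls became 3 with DESeq2 and 2 with all 12 libraries, and were 0 to 0 with a library left out. There the median log2 fold change of 0.11 was 0.77 with the replicate block, -0.72 with no filter and from -0.43 to 2.92 with a library left out (2.92 without WT replicate 1). With a library left out the rule was applied again to the rest, so those medians are not independent of the choice of regions. The cause was not tested. The share of 2-library regions within 1 genotype, 38.9%, was 35.6% at 5 counts, 43.3% at 20 counts and 37.2% in the other marks' lists. The 1 H3K27ac call was 0 with total counts, DESeq2 or the replicate block and 0 to 21 with a library left out (11 and 21 without WT replicates 1 and 2, 0 without either CSE-KO library). The 0 H3K4me3 calls were 1 with DESeq2, 1 with the replicate block and 0 to 17 with a library left out (17 without WT replicate 1). Of 232 values of the 23 described regions, 216 kept direction and stayed uncalled, and 7 were called (6 lower with DESeq2, 1 higher with all 12 libraries). The 9 that turned sign belong to 2 of the 3 highest regions. The first had 0.17 with total counts, 0.12 in regions of all 4 libraries and -0.55 to 0.43 with a library left out, turning without WT or CSE-KO replicate 2. The second had 0.35, 0.27 and -0.32 to 0.43 in that order, turning without the same libraries, and 0.029 with the replicate block.

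Whether same-numbered libraries share more than a number is not given in the labels. Deviations of the WT and CSE-KO replicates correlated at -0.00697 for H3K23ac, -0.0156 for H3K27ac and -0.0704 for H3K4me3. Such values cannot exclude a shared batch. The block left 51 H3K23ac regions at an unadjusted p under 0.05, against 666. Over all regions kept, the median log2 fold change was 2.66 without WT replicate 1 and -0.01 without WT replicate 2. It was 0.21 and 0.12 without CSE-KO replicates 1 and 2. Of the 7936 regions kept without WT replicate 1, 5723 had 10 or more counts in both CSE-KO libraries. The 2.66 is thus not independent of the rule. At the 9 regions with 10 to 12 counts in each CSE-KO library and 0 in WT, the floor of 3 counts gave bounds of 5.13-fold to 5.88-fold.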
